A study of Mus musculus with 20 samples.

Results

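Wif1 (Wnt inhibitory factor 1) and 9 genes of the Wnt pathway around it were followed in livers of male mice: Nkd1, Axin2, Lgr5, Znrf3, Rnf43, Tbx3, Sp5, Notum and Rspo3. All 10 were found by symbol in a count table of 16115 genes, and all 10 had passed the authors' filter on low counts. Wif1 was chosen by its higher level with oxymetholone in these same libraries, so every difference of Wif1 that uses the oxymetholone or untreated mutant libraries, or sets a group with oxymetholone against wild type, is given as a description with no test. The other 9 were chosen as hepatic targets and feedback genes of the pathway. RNA was sequenced from liver after 18 months of treatment in 5 groups. These were untreated wild type (genotype wt, 4 libraries) and 4 groups that all carried the Fancd2 mutant genotype (d2-/-): untreated (3 libraries), metformin (3), oxymetholone (5), and metformin with oxymetholone (3, called both drugs here). Fancd2 is a gene of the Fanconi anemia DNA repair pathway, metformin is a biguanide used in diabetes, and oxymetholone is a synthetic androgen. No wild-type mice were treated, so each drug was measured on the mutant background only. Of 20 labelled samples, 2 were not analysed here (untreated mutant replicate 1 and metformin replicate 2), and Fancd2 itself was not analysed here. The labels do not say that libraries of a group came from separate animals, so p-values measure the spread between these samples, which may be in part technical.

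As background, Wnt proteins are secreted ligands that bind Frizzled and Lrp receptors and protect β-catenin from destruction, after which β-catenin with Tcf factors switches on target genes. In the liver, endothelial cells of the central vein supply Wnt ligands and R-spondin, and the hepatocytes around that vein express target genes such as Glul (glutamine synthetase). R-spondins bind Lgr receptors and remove the ubiquitin ligases Znrf3 and Rnf43 from the cell surface, which otherwise clear Frizzled receptors. Several targets restrain the pathway in turn: Axin2 scaffolds the complex that destroys β-catenin, Nkd1 binds Dishevelled, and Notum is a secreted enzyme that removes the lipid from Wnt ligands. Wif1 is a secreted protein that binds Wnt ligands outside the cell. Tbx3 and Sp5 are transcription factors of the target programme.

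Promoter sequences show where the letters that Tcf factors and the androgen receptor are known to prefer lie next to these genes. A RefSeq table (GRCm38.p6) matched 5 of the 10 genes: Wif1, Nkd1, Axin2, Rnf43 and Sp5. Windows of 250 bases before the start of the gene are printed 5′ to 3′ for Wif1, the gene that differed most, for Nkd1, and for Axin2 and Sp5, in which a motif was found. Capitals mark a match to CTTTGAT or CTTTGAA (Tcf motif letters) or to AGAACA (a hexamer of the androgen receptor), each searched on both strands.
Wif1, chr10:121033754-121034003, plus strand: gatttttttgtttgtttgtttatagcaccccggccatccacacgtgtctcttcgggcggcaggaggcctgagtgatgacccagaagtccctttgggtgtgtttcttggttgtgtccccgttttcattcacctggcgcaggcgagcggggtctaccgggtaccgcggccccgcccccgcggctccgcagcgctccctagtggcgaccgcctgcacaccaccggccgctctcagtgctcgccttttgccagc
Nkd1, chr8:88527383-88527632, plus strand: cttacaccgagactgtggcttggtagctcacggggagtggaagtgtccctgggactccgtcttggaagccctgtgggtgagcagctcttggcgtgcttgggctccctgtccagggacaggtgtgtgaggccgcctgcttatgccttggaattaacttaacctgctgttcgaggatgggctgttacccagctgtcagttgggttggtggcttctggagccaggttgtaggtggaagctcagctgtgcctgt
Axin2, chr11:108920099-108920348, plus strand: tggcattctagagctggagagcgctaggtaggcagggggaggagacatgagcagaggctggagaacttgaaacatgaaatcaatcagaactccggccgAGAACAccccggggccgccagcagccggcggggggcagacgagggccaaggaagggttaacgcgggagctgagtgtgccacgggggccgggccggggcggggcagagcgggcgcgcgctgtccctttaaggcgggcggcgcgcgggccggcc
Sp5, chr2:70474673-70474922, plus strand: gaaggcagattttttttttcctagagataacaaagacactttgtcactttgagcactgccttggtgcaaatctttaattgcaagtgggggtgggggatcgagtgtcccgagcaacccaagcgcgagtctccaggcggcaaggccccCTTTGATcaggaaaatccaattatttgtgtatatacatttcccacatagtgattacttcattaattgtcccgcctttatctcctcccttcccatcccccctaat
Sp5 holds CTTTGAT starting 104 bases before its start, letters that occur in 3.21% of 32851 windows of this length. Axin2 holds AGAACA starting 152 bases before its start, and a window of Rnf43 holds it on the minus strand 240 bases before the start. AGAACA occurs in 16.1% of all windows, CTTTGAA in 4.46%, and the full palindromic element, this hexamer and its reverse complement around 3 bases, in 0.00913%. No motif was matched in the windows of Wif1 and Nkd1, which says only that these letters are not in these 250 bases. A match is a description of letters, not a bound site.

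Total counts ran from 20.2 to 32.7 M per library. Levels are given as CPM, counts per M of library size after scaling by the trimmed mean of M values (TMM). The defining hepatocyte markers were abundant throughout: 7 of 8 were measured, none was at 0 in all libraries, and their summed level lay between 35000 and 85000 CPM. In bulk liver RNA, fewer cells of a type and less RNA per cell cannot be told apart. A pair of libraries stood apart from the rest. Metformin replicate 3 and both drugs replicate 3 had median correlations with the other libraries of 0.926 and 0.916, below the 0.942 to 0.964 of the others. In metformin replicate 3 the bile duct marker Krt19 reached 237 CPM, against at most 13.1 CPM elsewhere. In both drugs replicate 3 the 5 proliferation markers summed to 41.6 CPM, against 2.12 to 21.3 CPM elsewhere, and the 15 pericentral targets to 3820 CPM, against 4960 to 17700 CPM elsewhere. The summed level of 6 bile duct markers was 654 and 668 CPM in these libraries, and higher still, 1470 CPM, in untreated mutant replicate 2, where Spp1 made up 1440 CPM of it.

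Wif1 was near 1 CPM in untreated livers of both genotypes, several times higher with metformin, and more than an order of magnitude higher with oxymetholone. Wild-type libraries held 1.01, 0.854, 0.752 and 1.73 CPM (mean 1.09 ± 0.444, SD, n = 4), and untreated mutants 0.213, 1.04 and 0.880 CPM (0.711 ± 0.438, SD, n = 3). These groups overlapped, and both rested on few reads, 6 to 45 counts per library. With metformin alone the level was 3.32, 2.38 and 4.66 CPM (3.45 ± 1.15, SD, n = 3), every library above every untreated library of either genotype. With oxymetholone alone it was 41.7, 44.0, 18.0, 16.3 and 37.6 CPM (31.5 ± 13.3, SD, n = 5), with 379 to 1389 counts per library, and 3 of the 5 libraries lay well above the other 2. With both drugs it was 24.4, 14.3 and 9.57 CPM (16.1 ± 7.59, SD, n = 3), above every metformin library and overlapping the oxymetholone range at its lower end.

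**Figure D1:**
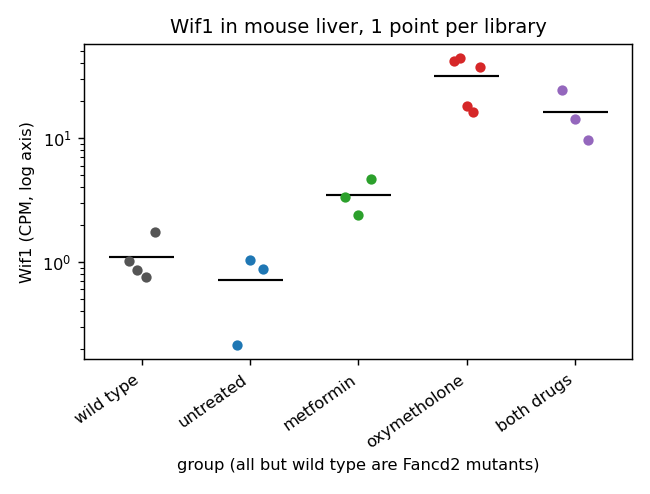
Wif1 level in CPM on a log axis in the 18 libraries, 1 point per library with a line at the group mean. Wild-type and untreated mutant livers overlap below 2 CPM, metformin livers lie between 2.38 and 4.66 CPM, and the 8 libraries with oxymetholone lie at 9.57 CPM or above.

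Ordered by mean, Wif1 ran from untreated mutants through wild type, metformin and both drugs to oxymetholone. Of the neighbours in this order, untreated mutants and wild type overlapped and both drugs and oxymetholone overlapped, while the other neighbours did not. Of 10 pairs of groups, 8 were without overlap for Wif1. The share of all genes that were higher without overlap was 1.83% for metformin against wild type, 0.757% for oxymetholone against metformin, 0.987% for oxymetholone against wild type, 4.71% for both drugs against untreated mutants and 3.69% for both drugs against wild type. For the other genes this number was 2 for Nkd1, 1 each for Lgr5 and Rspo3, and 0 for Axin2, Znrf3, Rnf43, Tbx3, Sp5 and Notum. As a description of the values that chose it, Wif1 was 45.1-fold higher with oxymetholone than in untreated mutants (log2 difference 5.49 ± 0.60, SE) and 28.9-fold higher than in wild type (4.85 ± 0.50). With both drugs it was 23.0-fold above untreated mutants and 14.7-fold above wild type. In oxymetholone against untreated mutants edgeR called 0.0434% of all genes, and 1.87% were higher without overlap.

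Whether oxymetholone also raised Wif1 in mice that received metformin was asked by comparing both drugs with metformin alone, which shares no library with oxymetholone against untreated mutants. The gene was chosen with values of all 5 groups known, so this test is not independent of that choice. The log2 difference was 2.22 ± 0.52 (SE), a 4.65-fold higher level, with a 95% interval of 1.12 to 3.31, and 3 of 3 libraries lay above all metformin libraries. The difference did not pass adjustment over all genes with edgeR (adjusted p = 0.787) or limma-voom (adjusted p = 0.602), and it passed with DESeq2 (adjusted p = 0.0448). Over the alternatives run, adjusted p lay between 0.0448 and 1 and the log2 difference between 1.79 and 2.5. An exact two-sided permutation test over the libraries gave p = 0.1, the smallest value that 3 against 3 allows. Groups of this size without overlap always give that value, so it adds nothing to the lack of overlap. Groups without overlap and higher with both drugs were seen for 2.24% of all genes. Of 16115 genes, 10 were called here by DESeq2, 3 by limma-voom and 0 (0%) by edgeR, for which 552 (3.43%) had an unadjusted p under 0.05.

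Metformin alone was compared with untreated mutants, whose low Wif1 was part of the choice of the gene, so its difference is a description. It was 2.31 ± 0.56 (SE) on the log2 scale, 4.94-fold, and all 3 metformin libraries were above all 3 untreated ones. Genes higher without overlap made up 3.94% of all genes here. Of all genes, 11 were called by DESeq2, 0 by limma-voom and 0 (0%) by edgeR, for which 914 (5.67%) had an unadjusted p under 0.05. Without untreated mutant replicate 2, whose 6 counts are the lowest for this gene, the Wif1 difference was 1.85.

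Adding metformin to oxymetholone went with a lower mean of Wif1. The log2 difference of both drugs against oxymetholone alone was -0.97 ± 0.46 (SE), a description because the high level in the oxymetholone libraries chose the gene. The groups overlapped: the library at 24.4 CPM lay above the 2 lowest oxymetholone libraries, and the other 2 lay below all 5. No gene of the 10 had groups without overlap here, against 1.14% of all genes. In this comparison 1 gene was called by DESeq2, 0 by limma-voom and 0 (0%) by edgeR, for which 461 (2.86%) had an unadjusted p under 0.05. The rise with oxymetholone was smaller on the metformin background than without it by 3.28 ± 0.72 (SE) on the log2 scale, a description because it uses the values that chose the gene. For the other 9 genes this difference of differences had adjusted p values of 0.863 or above with edgeR.

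Untreated mutants and wild type were compared for the effect of the genotype. The log2 difference of Wif1, again a description, was -0.64 ± 0.54 (SE), and the groups overlapped. All 3 tools called 0 genes (0% with edgeR), and the genes with an unadjusted p under 0.05 numbered 416 (2.58%) with edgeR, 559 with DESeq2 and 4074 with limma-voom.

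The authors' deposited table, whose test is not named in its headers, lists log2 differences for Wif1 of 1.94 for both drugs against metformin and 2.67 for metformin against untreated mutants. It also lists -0.95 for untreated mutants against wild type and -1.18 for both drugs against oxymetholone. The authors' deposited table calls 0 genes in each of these 4 comparisons at an adjusted p under 0.05.

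The genes whose levels followed Wif1 most closely over the 18 libraries were Paqr8, Lncbate1, Serpine2, Xlr4c and Slco4c1, ranked by Pearson correlation of log2 CPM among 11577 genes. Paqr8, a membrane receptor of the progestin and adipoQ receptor family, correlated with Wif1 at 0.928. Its mean level was 1.43 CPM in untreated mutants, 2.95 with metformin, 22.8 with oxymetholone and 11.3 with both drugs. Serpine2, a secreted serine protease inhibitor, correlated at 0.883. It averaged 2.68 CPM in untreated mutants, 10.5 with metformin, 22.5 with oxymetholone and 26.1 with both drugs. Lncbate1, a long noncoding RNA, correlated at 0.915 and, unlike Wif1, had a metformin mean (0.291 CPM) close to that of untreated mutants (0.231 CPM). Xlr4c (0.874) and Slco4c1 (0.868), an organic anion transporter, averaged 0.206 and 0.192 CPM in wild type and 0.103 and 0.0904 CPM in untreated mutants. With metformin Xlr4c stayed close to that, at 0.139 CPM, while Slco4c1 averaged 1.28 CPM (0.263 to 3.3). They averaged 5.95 and 12.2 CPM with oxymetholone and 1.61 and 4.1 CPM with both drugs. Within the 8 oxymetholone libraries the correlations with Wif1 were 0.52 for Paqr8, 0.86 for Lncbate1, 0.53 for Serpine2, 0.87 for Xlr4c and 0.59 for Slco4c1. Within the other 10 libraries they were 0.56, 0.12, 0.67, 0.08 and 0.37 in the same order. The points share the scaling of each library, and no p is given.

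None of the other 9 genes showed a step of this kind. Their highest and lowest group means differed by 1.21-fold (Znrf3) to 2.29-fold (Nkd1), against 44.3-fold for Wif1. In the oxymetholone comparison with untreated mutants, 7 of the 9 were higher and 2 lower, with a median log2 difference of 0.21, while the median of all genes was 0.031. Nkd1 had the largest of these differences, 0.51 ± 0.42 (SE), and Lgr5 (-0.38 ± 0.29) and Notum (-0.097 ± 0.41) were the 2 lower ones. Every 95% interval of these 9 differences included 0, and 0 of the 9 had groups without overlap, against 3.46% of all genes. The authors' deposited table lists Lgr5 (-0.339) and Tbx3 (-0.188) as the lower ones in this comparison, and Notum as higher (0.178). Per kilobase of exon, Wif1 was among the weakest of the 10 in wild type, at 0.449 CPM per kb, below Lgr5 (0.525) and Znrf3 (0.555). With oxymetholone it was the strongest, at 13.0 CPM per kb against 4.65 for Notum, the next. Exon lengths come from GENCODE M21 on GRCm38, not from the authors' annotation.

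**Figure D2:**
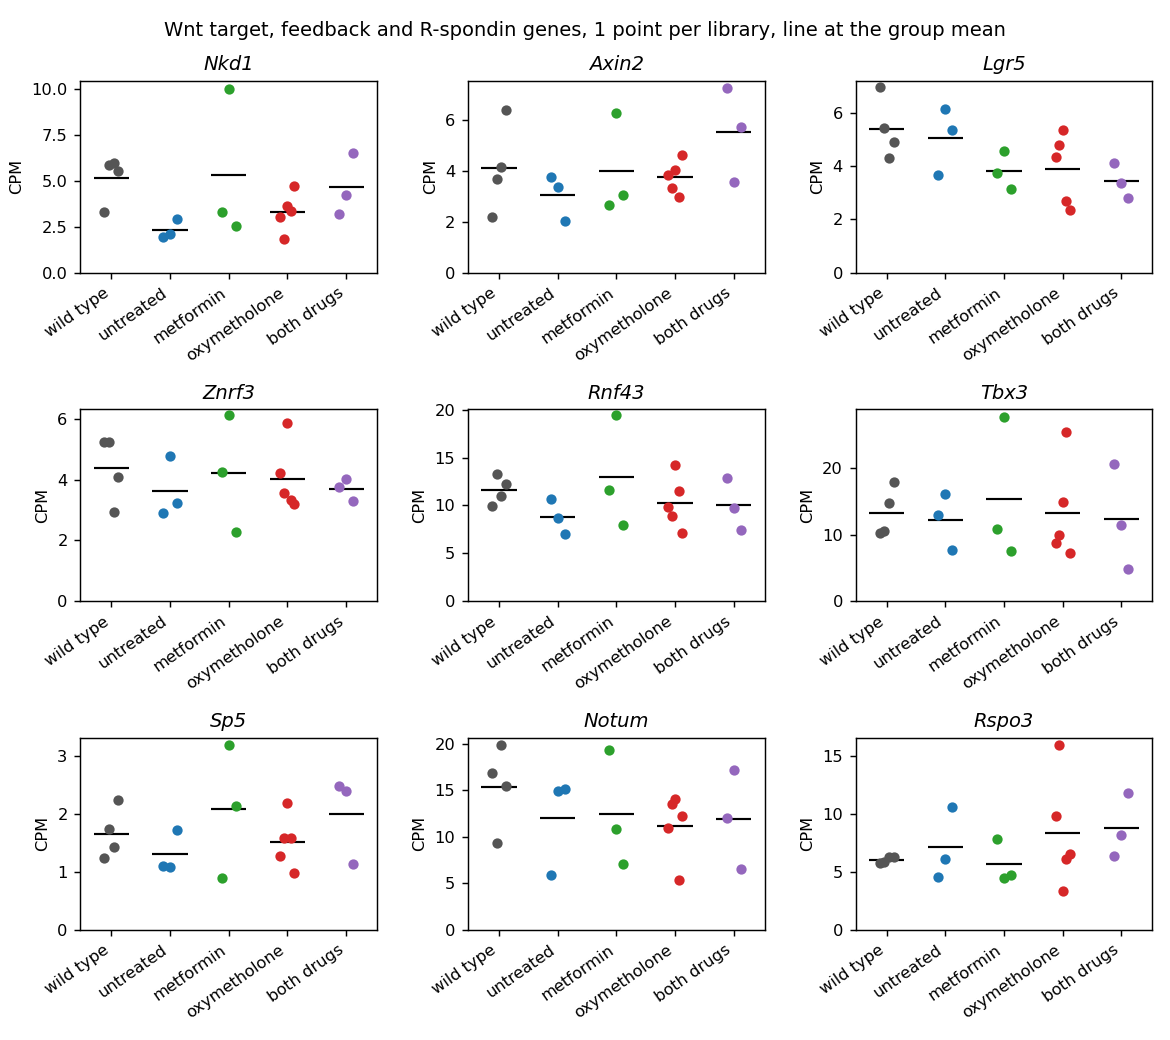
Levels in CPM of the 9 other genes in the 18 libraries, 1 panel per gene with its own linear axis from 0, 1 point per library and a line at the group mean. Groups overlap in most panels, Nkd1 is low in untreated mutants, and 1 metformin library (replicate 3) is the highest point for Nkd1, Znrf3, Rnf43, Tbx3 and Sp5.

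Notum, the other secreted inhibitor among the 10, was the strongest of them per kilobase in wild type, at 6.40 CPM per kb. Wild type held 16.9, 9.29, 19.9 and 15.5 CPM, untreated mutants 5.93, 14.9 and 15.1, and metformin 19.3, 10.8 and 7.10 CPM. Oxymetholone libraries held 10.9, 13.5, 14.1, 5.31 and 12.2 CPM, and libraries with both drugs 12, 17.2 and 6.49 CPM. All groups overlapped and each held a library at or below 9.29 CPM. Intervals of the 4 tested differences spanned 0, from -0.36 ± 0.43 (untreated mutants against wild type) to 0.085 ± 0.41 (both drugs against oxymetholone), and edgeR's adjusted p was 0.973 or above. Notum shares 918 exonic bases with antisense genes, and the strand setting of the counting is not given in the sources used here.

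Rspo3, the R-spondin made by central vein endothelium and mesenchymal cells, was tight in wild type and spread widely in mutants. Wild-type libraries held 5.75, 5.87, 6.23 and 6.24 CPM, untreated mutants 4.58, 6.12 and 10.6, and metformin 7.79, 4.49 and 4.75 CPM. Oxymetholone libraries ranged from 3.33 to 15.9 CPM with 9.77, 6.09 and 6.55 between, and libraries with both drugs held 6.39, 8.16 and 11.8 CPM. The 3 libraries with both drugs were all above the 4 wild-type ones, the lowest of them narrowly, as were 3.69% of all genes. The SD was 0.25 CPM in wild type and 1.83 to 4.81 CPM in the mutant groups, values that were not tested against each other. The log2 difference of both drugs against metformin was 0.64 ± 0.45 (SE), with a 95% interval of -0.31 to 1.58 (edgeR adjusted p = 0.999). Rspo3 shares 404 exonic bases with an antisense gene.

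Lgr5, an R-spondin receptor of pericentral hepatocytes, had its highest means in the untreated groups and its lowest with both drugs. Wild type held 6.95, 5.41, 4.30 and 4.90 CPM, untreated mutants 3.66, 6.12 and 5.36, and metformin 3.74, 4.56 and 3.13 CPM. Oxymetholone libraries held 4.33, 4.78, 5.33, 2.68 and 2.33 CPM, and libraries with both drugs 4.11, 3.36 and 2.80 CPM. All libraries with both drugs were below all wild-type ones, as for 5.77% of all genes, and every other pair of groups overlapped. In the tested comparisons the differences were -0.096 ± 0.31 (untreated mutants against wild type), -0.40 ± 0.33 (metformin against untreated), -0.16 ± 0.33 (both drugs against metformin) and -0.18 ± 0.30 (both drugs against oxymetholone). None passed adjustment (edgeR adjusted p 0.927 to 0.999), and each 95% interval included 0.

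Znrf3 and Rnf43, the ligases that clear Frizzled receptors and are themselves Wnt targets, varied within groups as much as between them. Znrf3 was at 5.25, 5.23, 2.94 and 4.09 CPM in wild type, 2.91, 4.76 and 3.23 in untreated mutants, 4.26, 6.11 and 2.26 with metformin, 4.21, 3.56, 5.86, 3.33 and 3.20 with oxymetholone and 3.76, 4.03 and 3.29 with both drugs. Rnf43 was at 9.90, 13.3, 11 and 12.2 CPM in wild type, 10.7, 8.64 and 7.01 in untreated mutants, 11.6, 19.4 and 7.94 with metformin, 9.81, 8.94, 14.2, 11.5 and 7.07 with oxymetholone and 12.9, 9.74 and 7.48 with both drugs. For both ligases all groups overlapped, and the highest value of all 18 libraries was metformin replicate 3. The largest tested difference of Rnf43 was metformin against untreated mutants, 0.57 ± 0.32 (SE), edgeR adjusted p = 0.927, and it was 0.16 without that library. The largest of Znrf3 was -0.27 ± 0.33, untreated mutants against wild type, edgeR adjusted p = 0.973.

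Axin2, a general feedback target of the pathway, had its highest mean with both drugs and its lowest in untreated mutants. Wild type held 2.21, 3.70, 4.16 and 6.40 CPM, untreated mutants 3.77, 3.39 and 2.02, and metformin 2.68, 6.27 and 3.07 CPM. Oxymetholone libraries held 3.84, 3.34, 4.05, 2.96 and 4.63 CPM, and libraries with both drugs 7.28, 3.57 and 5.74 CPM. No pair of groups was without overlap. The difference of both drugs against metformin was 0.46 ± 0.40 (SE), with a 95% interval of -0.39 to 1.31 (edgeR adjusted p = 0.999), and that of both drugs against oxymetholone was 0.55 ± 0.36 (-0.20 to 1.31, adjusted p = 0.956). Axin2 shares 209 exonic bases with an antisense gene.

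Nkd1 was the gene after Wif1 with the largest difference between groups, and the untreated mutants were low. They held 1.95, 2.08 and 2.90 CPM (2.31 ± 0.513, SD, n = 3), all below the 3.31, 5.87, 5.95 and 5.51 CPM of wild type (5.16 ± 1.25, SD, n = 4). The log2 difference was -1.16 ± 0.45 (SE), a 2.23-fold lower level with a 95% interval of -2.1 to -0.22, and it did not pass adjustment over all genes (edgeR adjusted p = 0.973, limma-voom 0.086). Genes lower without overlap made up 3.82% of all genes in this comparison. Leaving out each library in turn gave -1.36 to -1.05. Metformin libraries held 3.32, 10 and 2.52 CPM, oxymetholone libraries 3.04, 1.82, 3.62, 3.33 and 4.69, and libraries with both drugs 3.17, 4.23 and 6.51 CPM. The last group lay above all untreated mutants, as for 4.71% of all genes, and the metformin and oxymetholone groups overlapped the untreated mutants. Metformin against untreated mutants gave 1.19 ± 0.47 (SE), edgeR adjusted p = 0.764, and 0.33 without metformin replicate 3, the library at 10 CPM. The authors' deposited table lists -0.022 for Nkd1 in this comparison.

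Glul, the classical pericentral target, was lowest in untreated mutants as Nkd1 was. It was at 270, 403 and 399 CPM in untreated mutants (357 ± 75.5, SD, n = 3), all below the 496, 608, 835 and 996 CPM of wild type (734 ± 224, SD, n = 4). The log2 difference was -1.04 ± 0.33 (SE), with a 95% interval of -1.74 to -0.34, and it did not pass adjustment (edgeR adjusted p = 0.973). Metformin libraries held 459, 861 and 426 CPM, all above the untreated mutants, as for 3.94% of all genes. Oxymetholone libraries held 549, 548, 753, 906 and 956 CPM, and libraries with both drugs 793, 641 and 922 CPM. Cyp1a2, a pericentral cytochrome, was also lower in untreated mutants without overlap (337 ± 78.6 against 612 ± 166 CPM, SD, n = 3 and 4; -0.86 ± 0.52, SE), as were 3.82% of all genes. Cyp2e1, another, overlapped (4550 ± 1890 against 6090 ± 1520 CPM). Of 15 pericentral targets, 14 were lower in untreated mutants than in wild type and 1 higher, with a median of -0.42 against -0.021 over all genes. Of the 15, 3 were lower without overlap, against the 3.82% of all genes. None passed adjustment. Of 11 periportal genes, which mark the opposite end of the lobule, 7 were lower and 4 higher, with a median of -0.21, and 1 was lower without overlap. That gene was Pck1, an enzyme of gluconeogenesis, at 198, 444 and 332 CPM in untreated mutants against 728, 741, 1280 and 1060 CPM in wild type. Its log2 difference, -1.55 ± 0.60 (SE), was larger than that of Glul and did not pass adjustment either (edgeR adjusted p = 0.973). Untreated mutant replicate 2, the library with the highest bile duct marker sum, held the lowest sum of pericentral targets of its group (4960 CPM against 11300 and 11200), and their part in the result was not tested.

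Tbx3 and Sp5, the transcription factors, had wide ranges in every group. Tbx3, a repressor expressed in pericentral hepatocytes, was at 10.2, 10.5, 14.7 and 17.9 CPM in wild type and at 12.9, 16.1 and 7.70 in untreated mutants. It was at 10.9, 27.7 and 7.62 CPM with metformin, 8.77, 9.94, 14.9, 25.4 and 7.18 with oxymetholone, and 20.6, 11.4 and 4.91 with both drugs. Each drug group held a library above and a library below the whole wild-type range, and all groups overlapped. Sp5, the weakest of the 9 in raw counts (17 to 97 per library), was at 1.24, 1.74, 1.43 and 2.24 CPM in wild type and 1.10, 1.09 and 1.72 in untreated mutants. It was at 0.895, 3.20 and 2.14 CPM with metformin, 1.28, 1.59, 2.19, 1.58 and 0.975 with oxymetholone, and 2.48, 2.40 and 1.13 with both drugs. All groups overlapped here too. The tested differences lay between -0.34 ± 0.55 and 0.34 ± 0.55 for Tbx3 and between -0.35 ± 0.42 and 0.68 ± 0.45 for Sp5, and every 95% interval included 0 (edgeR adjusted p 0.927 or above).

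**Figure D3:**
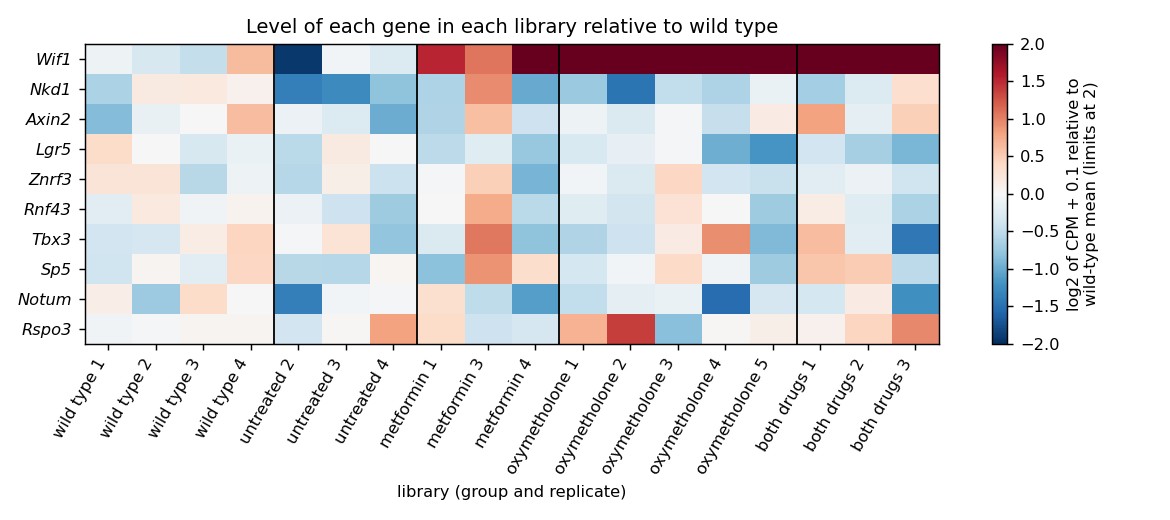
Each gene in each of the 18 libraries as log2 of CPM + 0.1 relative to the wild-type mean, with colours limited at 2 in either direction and black lines between groups. Wif1 is at the upper limit in all 8 oxymetholone libraries, Nkd1 is low in the 3 untreated mutants, and metformin replicate 3 is high for several genes at once.

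Of the 10 genes, none was called in any of the 4 tested comparisons with edgeR. For Wif1 this is a description, since the gene was chosen with these values known. In both drugs against metformin, 3 of 10 were higher and 7 lower, with a median log2 difference of -0.12 against -0.019 over all genes. Of the 7 lower ones, Nkd1, Znrf3, Rnf43, Tbx3 and Sp5 turned to the other sign without metformin replicate 3, at 0.68, 0.19, 0.038, 0.40 and 0.37. The authors' deposited table lists all 10 as higher in this comparison, with a median of 0.41. In metformin against untreated mutants 8 were higher and 2 lower, with a median of 0.37 against 0.042 over all genes, and Axin2, Znrf3 and Tbx3 turned to -0.084, -0.16 and -0.40 without metformin replicate 3. Here the authors' deposited table lists 5 higher and 5 lower, with a median of 0.029. Metformin replicate 3 was the highest of all 18 for 5 of the 9 genes other than Wif1. Its bile duct markers Krt19, Muc1 and Epcam were at 237, 155 and 43.1 CPM, against at most 13.1, 3.79 and 16.6 CPM elsewhere, and their part in these differences was not tested. In untreated mutants against wild type 9 of 10 were lower and Rspo3 alone higher, with a median of -0.35 against -0.021 over all genes. Among these, Tbx3, Lgr5 and Rspo3 changed sign when a single library was left out. The authors' deposited table lists 9 lower and 1 higher for the genotype, the latter being Tbx3. In both drugs against oxymetholone 5 were higher and 5 lower, with a median of 0.021 against 0.019 over all genes, and the authors' deposited table lists 6 higher and 4 lower.

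**Figure D4:**
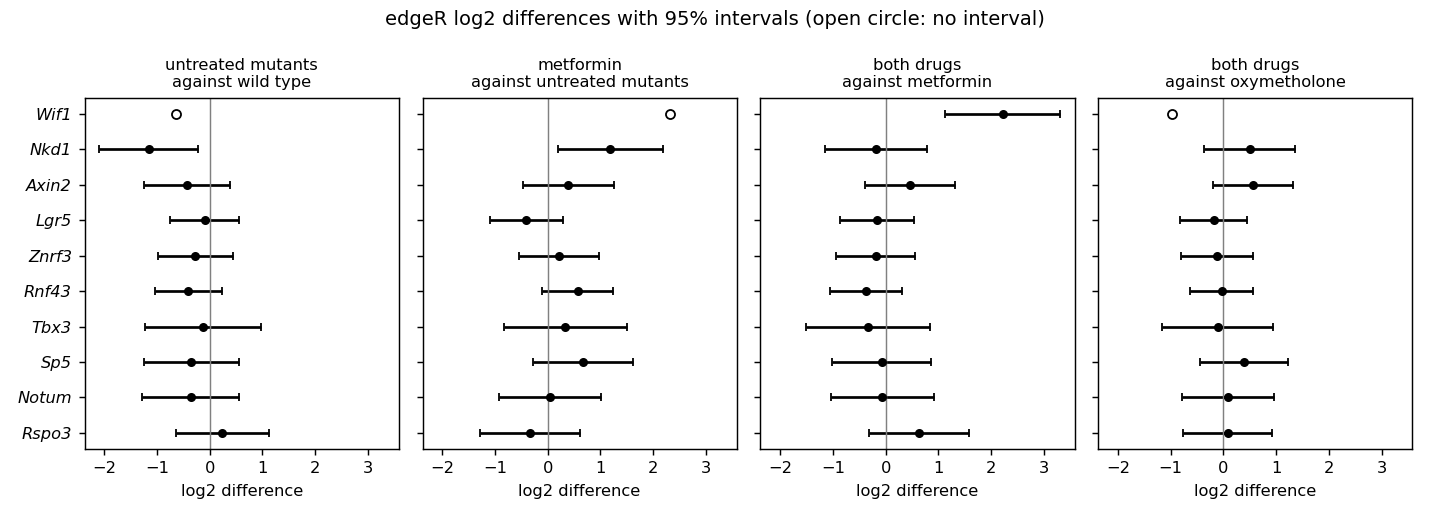
Log2 differences of the 10 genes in the 4 tested comparisons, points with 95% intervals from the edgeR fit and a grey line at 0. Open circles for Wif1 carry no interval, since those libraries chose the gene. The interval drawn for Wif1 in both drugs against metformin is not independent of that choice either. Intervals that leave out 0 are those of Wif1 in both drugs against metformin and of Nkd1 in untreated against wild type and metformin against untreated, none of which passed adjustment with edgeR.

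The rest of the pathway was examined through lists of ligands, receptors, inhibitors and core components, none of whose members was called by edgeR in the 4 tested comparisons. Of 21 genes for ligands and their secretion 10 were measured, and in both drugs against metformin 5 were higher and 5 lower, with a median of -0.11. Wnt2, a ligand of the central vein endothelium, averaged 2.61 ± 0.327 CPM in wild type, 3.11 ± 1.87 in untreated mutants, 2.56 ± 0.688 with metformin, 3.81 ± 1.98 with oxymetholone and 3.76 ± 0.989 with both drugs (SD). The log2 difference of both drugs against metformin was 0.55 ± 0.46 (SE). Wnt9b, the other such ligand, was at 0.355, 0.164 and 0.403 CPM in untreated mutants. All lay below the 0.414, 0.676, 1.11 and 0.771 CPM of wild type, the nearest narrowly, as for 3.82% of all genes. That log2 difference was -1.24 ± 0.61 (SE), with edgeR adjusted p = 0.973, at levels of at most 1.2 CPM in every library. In oxymetholone against untreated mutants 7 of the 10 ligand and secretion genes were higher and 3 lower. Wnt9b alone was higher without overlap, at 0.519 to 1.2 CPM with oxymetholone, as were 1.87% of all genes. With both drugs Wnt9b was at 0.495, 1.07 and 0.188 CPM, and with metformin at 0.211, 0.792 and 0.203 CPM. Each of these groups overlapped the untreated mutants. Wnt5b gave 0.69 ± 0.38 and Wnt7b -2.89 ± 1.1 for both drugs against metformin. Wnt7b was at 7.36 CPM in metformin replicate 3 and at most 0.517 CPM elsewhere.

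Of 20 receptor and R-spondin genes 13 were measured, and 4 were higher and 9 lower in both drugs against metformin, with a median of -0.36. Lgr4, the R-spondin receptor with the highest CPM in these livers, averaged 77.7 ± 5.36 CPM in untreated mutants, 61.4 ± 9.63 with metformin, 52.8 ± 14.2 with oxymetholone and 44.5 ± 19.8 with both drugs (SD), against 65.9 ± 7.9 in wild type. Its tested differences were -0.34 ± 0.30 for metformin against untreated mutants, lower without overlap as were 3.32% of all genes, and -0.47 ± 0.30 for both drugs against metformin, neither past adjustment (edgeR adjusted p = 0.927 and 0.999). In oxymetholone against untreated mutants 7 of the 13 genes were higher and 6 lower. Of these, 2 were lower without overlap, as were 256 of 16115 genes. They were Lgr4 (34 to 67.5 against 74.4 to 83.9 CPM) and Fzd6 (0.0811 to 0.429 against 0.437 to 0.624 CPM). With both drugs Lgr4 was at 23.9 to 63.4 CPM, also below all untreated mutants, as for 637 of 16115 genes. Fzd6 was at 0.255 to 1.76 CPM there and overlapped them. The co-receptors Lrp5 and Lrp6 gave -0.90 ± 0.62 and -0.36 ± 0.42 for both drugs against metformin. The Frizzled receptors Fzd4, Fzd7 and Fzd8 gave 0.21 ± 0.40, -0.44 ± 0.31 and -0.39 ± 0.48, and Fzd5 gave -1.04 ± 0.44. Fzd5 was at 9.21 CPM in metformin replicate 3 and at most 4.65 CPM elsewhere. That replicate held Lrp5 at 78 CPM, against 16.6 and 20.9 CPM in the other metformin libraries, and Lrp6 at 31.6 CPM against 14.8 and 15.3 CPM.

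Of 16 other inhibitors that act outside the cell or at its membrane, 5 were measured (Sfrp1, Frzb, Dkk3, Dkk4 and Kremen1), and in both drugs against metformin 2 were higher and 3 lower. Sfrp1, a decoy receptor for Wnt, gave -1.63 ± 0.74, with 9.94 CPM in metformin replicate 3 and at most 1.62 CPM elsewhere. Frzb, another secreted decoy, gave 0.90 ± 0.79, and Kremen1, a transmembrane receptor for Dkk proteins, gave -0.28 ± 0.38. In oxymetholone against untreated mutants 4 of the 5 inhibitors were higher and 1 lower. Of these, 1 was higher without overlap, as were 1.87% of all genes. That gene was Dkk4, at 0.952 to 2.08 CPM with oxymetholone and 0.109 to 0.462 CPM in untreated mutants. Metformin libraries held 0.684, 0.528 and 1.59 CPM, also above all untreated mutants, as for 3.94% of all genes. Wild type held 1.29, 1.07, 0.215 and 0.347 CPM, overlapping the oxymetholone and metformin ranges. With both drugs Dkk4 was at 0.0991, 3.26 and 0 CPM. Of 20 core components 19 were measured, 6 higher and 13 lower in both drugs against metformin with a median of -0.35. Nkd2, Bcl9 and Tcf7l2 gave -1.7 ± 0.95, -0.84 ± 0.50 and -0.63 ± 0.38. Metformin replicate 3 held Nkd2 at 1.65 CPM, against 0.0526 and 0.666 CPM in the other metformin libraries. It held Bcl9 at 4.36 CPM against 1.11 and 1.65 CPM, and Tcf7l2 at 11.8 CPM against 11.2 and 6.61 CPM. The part of this library in these counts and differences was not tested. In untreated mutants against wild type 15 of the 19 were lower and 4 higher, with a median of -0.19. Pericentral targets were 9 higher and 6 lower in both drugs against metformin (median 0.22), with Ahr at 0.45 ± 0.29, Nr1i3 at 0.69 ± 0.49 and Tnfrsf19 at 0.68 ± 0.48. Periportal genes were 3 higher and 8 lower (median -0.35), with Hal at -0.71 ± 0.53, Cdh1 at -1.37 ± 1.1 and Sds at -0.59 ± 0.48. All genes named here for both drugs against metformin had an edgeR adjusted p of 0.999.

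Across the 18 libraries, the 10 genes did not vary as a single block. Nkd1 and Axin2 followed Glul, with Pearson correlations of log2 CPM of 0.72 and 0.63. With each group's mean removed these were 0.78 and 0.60. Without metformin replicate 3 they were 0.73 and 0.61, or 0.67 and 0.45 with group means removed as well. The pericentral genes Cyp2e1 and Cyp1a2 were not followed in this way. Over the 18 libraries they correlated with Nkd1 at 0.033 and 0.21, and with Axin2 at -0.099 and 0.063. Wif1 correlated with Glul at 0.46, but at -0.051 with group means removed, and with the other 9 genes between -0.44 (Lgr5) and 0.34 (Rspo3). With group means removed, the value for Lgr5 turned to 0.30, that for Notum went from -0.07 to 0.48, and the 9 ran from -0.39 (Rnf43) to 0.48. Rnf43 and Tbx3 correlated at 0.78, and both followed Stab2, a marker of sinusoidal endothelium, at 0.77 and 0.72. Lgr5 and Znrf3 correlated at 0.61. Rspo3 went with Lrat, a stellate cell marker, at 0.73, and against Stab2 at -0.61. Libraries high in Rspo3 were thus high in Lrat and low in Stab2, and libraries high in Rnf43 and Tbx3 the reverse. Other endothelial markers did not share this pattern. Pecam1 correlated with Rnf43 and Tbx3 at 0.26 and 0.14, and with Rspo3 at -0.2. Clec4g was at 20.8 CPM in oxymetholone replicate 2, the library highest in Rspo3. It was at 9.08 CPM in metformin replicate 3, the library highest in Rnf43 and Tbx3. The part of cell type makeup in these relations was not tested. These pairs were picked after their values were seen, the libraries share scaling and groups, and the correlations are descriptions over 18 points.

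**Figure D5:**
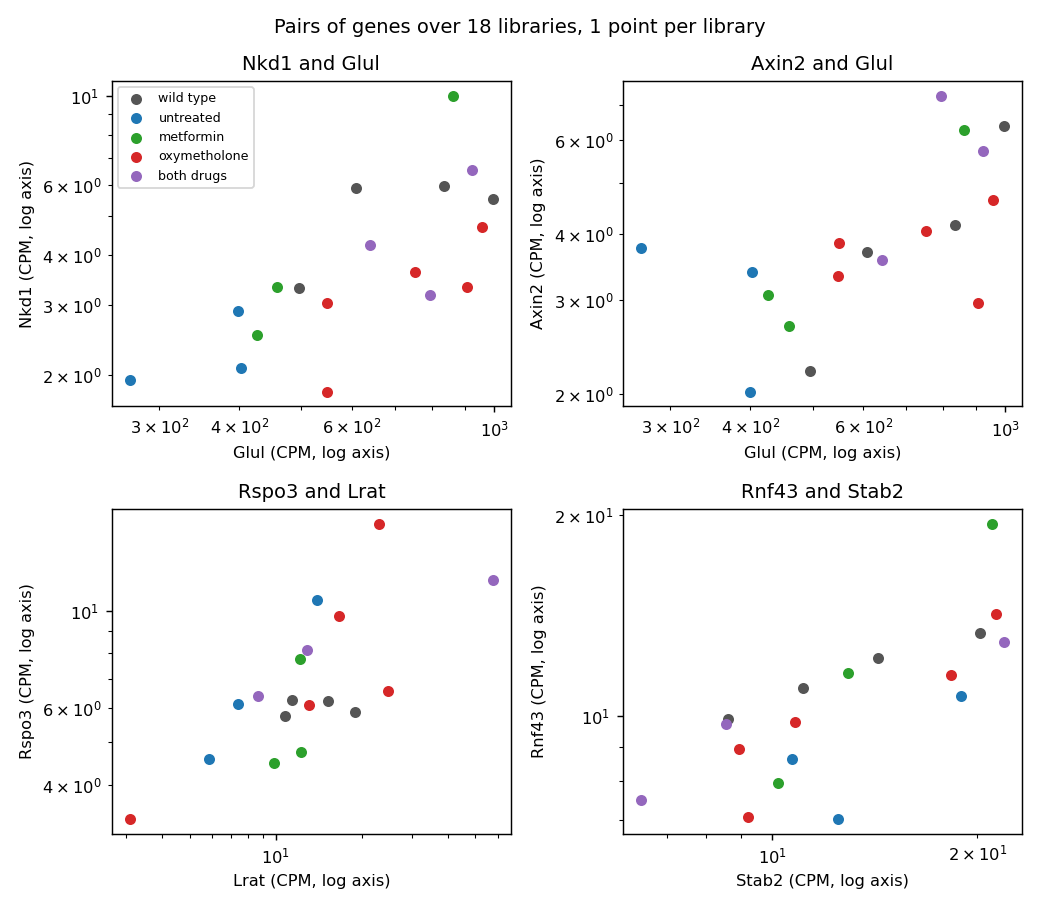
Levels in CPM on log axes of 4 pairs of genes over the 18 libraries, coloured by group: Nkd1 and Axin2 against Glul, Rspo3 against Lrat, and Rnf43 against Stab2. In each panel points of different groups lie along a common rising band, with Pearson correlations of log2 CPM of 0.72, 0.63, 0.73 and 0.77.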

How the data were processed

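The authors deposited 1 table of 16115 genes for 18 libraries. Its raw columns hold counts per gene, unnormalized whole numbers, per the file headers. Its CPM columns are a signal that the authors scaled by 1 factor per library, equal to edgeR's TMM CPM computed here (largest relative difference 5e-15). Every gene reached 0.401 CPM in at least 3 libraries, so genes with low counts had been removed before deposit. The table also holds the authors' deposited log2 fold changes and p-values, whose test the headers do not name, and deposited log2 residuals, which were not used. Reads were processed on GRCm39, per the submitters' processing notes. For aligner, counter, annotation and strandedness the answer is the same: not given in the sources used here. Columns of per-sample values left unmapped numbered 0. Replicate numbers follow the order of the sample records and pair nothing.

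Here the counts of all 18 libraries were scaled by TMM and fitted in edgeR 4.0.16 (R 4.3.3) by robust quasi-likelihood, with each group as a coefficient. filterByExpr removed 0 genes. Adjustment was by Benjamini-Hochberg over the whole table, at 0.05. Standard errors and 95% intervals come from this fit. Common dispersion was 0.181. TMM factors ran from 0.798 to 1.31. Total counts of 20.2 to 32.7 M set the depth, with 6 to 1389 counts for Wif1 and 17 or more for the other 9 genes. Scripts were tested on simulated counts. Correlations used log2 CPM with a prior count of 2. Alternatives were DESeq2 1.42.0, limma-voom (limma 3.58.1) with quality weights, DESeq2's size factors in edgeR, no filter, a mean of at least 1 CPM (12803 genes), the compared groups alone (14680 to 15243 genes), and leaving out each library. Leaving out metformin replicate 3 and both drugs replicate 3 together was chosen after seeing the data.

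The genes and lists were chosen with earlier results of these data known, so no count over them is independent support. Named beside the 10 genes were, by rule, up to 3 genes of each pathway list with the smallest edgeR p in both drugs against metformin, central vein ligands and receptors, Glul, Cyp2e1 and Cyp1a2, and the 5 genes most correlated with Wif1 that had a mean of at least 1 CPM and were not predicted genes, clones or pseudogenes. Pck1, Dkk4, Stab2, Pecam1, Clec4g, Lrat and the markers of the outlying libraries were named after their values were seen.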

Additional observations from a re-analysis of the deposited data

Results flagged for a closer look

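Nkd1 in wild-type replicate 1 was at 3.31 CPM, far below the 5.51 to 5.95 CPM of the other 3 wild-type libraries. The gap exceeds Dixon's critical value for 4 samples. Of 20 combinations of gene and group that were checked, 1 was marked in this way, and chance marks about 1 in 20. The library is still above all 3 untreated mutants, and without it the log2 difference of untreated mutants against wild type was -1.32.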

How the results depend on the processing

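Over the 4 tested comparisons, 40 differences of the 10 genes were recomputed under 540 alternatives: 479 kept their sign and their side of the threshold, 60 changed sign (32 of them on leaving out 1 library) and 1 passed the threshold. The last was Wif1 in both drugs against metformin with DESeq2 (adjusted p = 0.0448), which brought the number of the 10 genes called there from 0 to 1. Wif1 kept its sign in all 4 comparisons under all alternatives, which is a description only. The gene was chosen with these values known, so neither its sign nor its side of the threshold is independent of that choice. The 60 changes of sign concern 21 differences, all with 95% intervals that include 0, and their cause was not tested. With limma-voom and quality weights, both drugs against metformin became 0.222 for Nkd1, 0.103 for Lgr5, 0.364 for Znrf3, 0.177 for Rnf43, 0.545 for Tbx3, 0.21 for Sp5 and 0.492 for Notum. Leaving out both outlying libraries gave 0.327, 0.108, 0.251, 0.2, 0.772, 0.631 and 0.142 for the same genes. In untreated mutants against wild type limma-voom gave 0.132 for Lgr5. In metformin against untreated mutants it gave -0.395 for Znrf3, -0.265 for Tbx3 and -0.564 for Notum, and without the outlying libraries Axin2 was -0.0717, Znrf3 -0.16 and Tbx3 -0.394. In both drugs against oxymetholone limma-voom gave 0.192 for Lgr5, 0.064 for Znrf3, 0.216 for Rnf43 and 0.265 for Tbx3, and without the outlying libraries Rnf43 was 0.128, Tbx3 0.268 and Rspo3 -0.217. Leaving out each library in turn, both drugs against metformin ran from -0.521 to 0.677 for Nkd1, -0.493 to 0.186 for Znrf3, -0.631 to 0.0384 for Rnf43, -0.93 to 0.401 for Tbx3, -0.427 to 0.369 for Sp5 and -0.421 to 0.406 for Notum. Untreated mutants against wild type ran from -0.257 to 0.091 for Lgr5, -0.372 to 0.123 for Tbx3 and -0.173 to 0.478 for Rspo3. Metformin against untreated mutants ran from -0.0842 to 0.611 for Axin2, -0.16 to 0.519 for Znrf3, -0.398 to 0.665 for Tbx3, -0.418 to 0.328 for Notum and -0.623 to 0.0829 for Rspo3. Both drugs against oxymetholone ran from -0.197 to 0.0299 for Znrf3, -0.26 to 0.139 for Rnf43, -0.706 to 0.272 for Tbx3, -0.277 to 0.384 for Notum and -0.197 to 0.451 for Rspo3. Under DESeq2's size factors 0 of 50 group levels moved by over 1 SD, and the median of all genes moved by at most 0.037 on the log2 scale. Precision is limited by groups of 3 to 5 libraries. No paired analysis was possible because the labels carry no replicate numbers.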
